A study of Mus musculus with 6 samples.

Results

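The nuclear-encoded genes of the mitochondrial respiratory chain were examined in mouse fetal liver cells with and without an induced Arid3a construct. The genes were taken by symbol from the protein-coding genes of GENCODE release M21: symbols starting with Nduf, Uqcr, Atp5 or Cox4 to Cox8, and Sdha, Sdhb, Sdhc, Sdhd and Cyc1, without Atp5o and Atp5j. The symbols selected 92 genes, all of them among the 53801 genes of the deposited count table. The set also takes in 8 assembly factors of complex I (Ndufaf1 to Ndufaf8) and Atp5s, which are not subunits. RNA was sequenced in 6 samples, 3 labelled LUC and 3 labelled Arid3a-FLAG. All 6 came from fetal liver cells of stage E12.5-13.5, from a Fezh/J line on B6J.129(Cg) with the allele Gt(ROSA)26Sortm1.1(CAG-cas9*,-EGFP), which carries Cas9 and EGFP at the Rosa26 locus under the CAG promoter. The sample titles name the cells of both groups Gata1s, the term for the short form of GATA1. Both groups carried an sgGata1 guide and miR-125b and received doxycycline at 1 μg/mL for 48 h. They differed in the third transgene, a doxycycline-inducible Arid3a-FLAG construct in one group and a doxycycline-inducible construct named LUC in the other. Whether the samples of a group were separate embryos or cultures was not given in the sources used here, so each p-value reflects only the spread between these libraries, and that spread may be technical.

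The respiratory chain of the inner mitochondrial membrane passes electrons from NADH through complex I, or from succinate through complex II, to ubiquinone, then through complex III and cytochrome c to complex IV, where oxygen is reduced. Complexes I, III and IV move protons across the membrane, and ATP synthase, complex V, uses the gradient to make ATP. Most subunits are encoded in the nucleus and imported, and a small set is encoded by mitochondrial DNA. Nuclear respiratory factor 1 (NRF1), ETS-family factors such as GABP, and YY1 are known to bind near the start sites of many of these genes. Arid3a belongs to the ARID family of transcription factors and prefers AT-rich sequence.

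Promoter windows of RefSeq on GRCm38.p6, from 250 bases before to 50 bases after each start, were available for 72 of the 92 genes, in 76 windows. The palindromic NRF1 motif, spelled by the capitals in the stretches that follow, stood in 7 of the 76 windows (9.21%), against 0.971% of all 32851 windows of the table. The stretches are written 5′ to 3′ on the strand of the gene and show the motif in genes of complexes I, IV and V.
Ndufa11, chr17:56717677-56717736, plus strand: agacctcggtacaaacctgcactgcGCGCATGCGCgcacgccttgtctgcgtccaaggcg
Ndufaf4, chr4:24897945-24898004, plus strand: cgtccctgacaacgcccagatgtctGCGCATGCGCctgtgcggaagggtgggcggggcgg
Cox6a1, chr5:115349086-115349145, minus strand: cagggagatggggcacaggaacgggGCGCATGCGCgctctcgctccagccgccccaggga
Atp5k, chr5:108434415-108434474, minus strand: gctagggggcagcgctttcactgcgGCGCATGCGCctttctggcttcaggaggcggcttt
Atp5g2, chr15:102671055-102671114, minus strand: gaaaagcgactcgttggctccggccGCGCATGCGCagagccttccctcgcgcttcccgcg
The other 2 full matches lay after the start, in Ndufaf5 and Uqcrc1. The inner letters GCATGCGC, which every full match also holds, stood in 15.8% of the windows of these genes and 2.71% of all. The ETS motif CCGGAAGT stood in 6.58% against 3.89%, and its shorter form CCGGAAG in 22.4% against 8.86%. The YY1 motif AAGATGGC stood in 9 windows (11.8% against 2.75%), with its first base between 11 and 39 bases from the start in all of them. Of these 9, 8 were complex I genes or complex I assembly factors (Ndufa3, Ndufa9, Ndufaf8, Ndufb8, Ndufc1, Ndufs4, Ndufs6 and Ndufs7) and the other was Atp5j2. Windows of complex I genes and assembly factors made up 41 of the 76. The letters ATTAAA, searched as an ARID3A motif, stood in 6 windows (7.89%), fewer than the 13.9% of all windows. All motifs were searched on both strands. One of the 6 windows belonged to Cox6b2, the gene that differed between the groups, and its stretch is shown with these letters in capitals.
Cox6b2, chr7:4753222-4753277, minus strand: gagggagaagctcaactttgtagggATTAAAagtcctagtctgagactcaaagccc
A match describes the letters in a window, and binding was not measured here.

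Library totals ran from 15728150 to 18249053 counts, and the Arid3a-FLAG construct entry held 2758 to 3348 counts in the Arid3a-FLAG libraries and 0 in each LUC library. The 92 genes took 1.12% to 1.45% of the counts in LUC libraries and 1.09% to 1.16% in Arid3a-FLAG libraries. LUC library 2 stood apart from the others for these genes. Levels are given as CPM, the counts relative to the library size, scaled between libraries by TMM factors. The 92 genes summed to 11518, 15707 and 11045 CPM in LUC libraries 1, 2 and 3, and to 11522, 10791 and 10760 CPM in Arid3a-FLAG libraries 1, 2 and 3. The LUC 2 sum was thus 1.39 times the mean of LUC 1 and 3, whereas LUC 1 and 3 lay close to the Arid3a-FLAG libraries. Without TMM factors the LUC 2 sum was 1.25 times that mean. The log2 ratio of the Arid3a-FLAG mean to the LUC mean was -0.21, and -0.033 without LUC library 2. Without TMM factors these log2 ratios were -0.17 and -0.051.

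**Figure D1:**
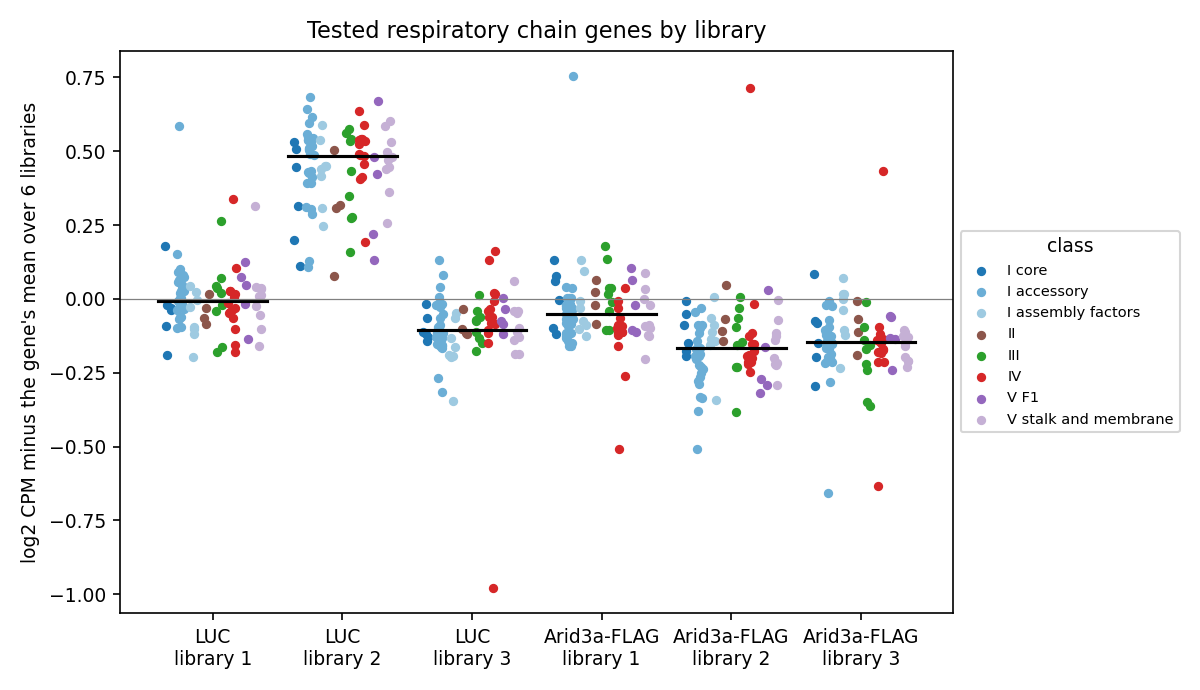
Each point is 1 of the 86 tested respiratory chain genes, and the vertical axis is its log2 CPM in a library minus its mean over the 6 libraries. Colours mark the class of gene and black bars the median. The points of LUC library 2 all lie above 0, with a median of 0.48, and the other 5 medians lie between -0.17 and 0.

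Expression passed the filter on low counts for 86 of the 92 genes, which were tested by edgeR's quasi-likelihood test among 13631 genes. LUC library 2 was the highest of the 6 libraries for 81 of the 86, against 31.3% of all tested genes. The 5 exceptions were Atp5s, Cox7a1, Ndufa12, Ndufb2 and Ndufs1. The ratio of LUC 2 to the mean of LUC 1 and 3 had a median of 1.43 over the 86 and ran from 0.937 in Ndufb2 to 1.67 in Ndufs6. It was at most 1.1 in 5 genes, Ndufa12, Ndufb2, Uqcrc1, Atp5a1 and Atp5s. Differences between the groups are given with and without LUC library 2.

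With Arid3a-FLAG, 1 of the 86 genes, Cox6b2, was lower at an adjusted p under 0.05, none was higher, and 85 did not pass. Of all tested genes, 3.87% were called lower and 3.43% higher, 7.29% together, so the count among the respiratory chain genes was below the background share. At an unadjusted p under 0.05, 25 of the 86 were lower and none higher, beside 13.9% and 11.7% of all tested genes. DESeq2 called 2 of the 86 lower and none higher, beside 5.8% and 5.66% of all genes. Without a filter on low counts, 17 of 89 were called lower and none higher, beside 4.5% and 3.63% of all genes then tested. The estimates leaned to one side: the log2 fold change was below 0 in 80 of the 86 (93.0%), beside 54.7% of all tested genes. The median was -0.28, beside -0.034 over all tested genes. Without LUC library 2 the median was -0.071, 61 of the 86 were below 0, and 2 genes were called lower (Cox6b2 and Ndufs7) and 1 higher (Ndufs1), beside 7.83% and 8.52% of all genes. At an unadjusted p under 0.05, 14 were then lower and 5 higher, beside 15.4% and 16.1% of all genes. For 85 of the 86 genes the 95% interval of the fold change excluded a 2-fold change in either direction, and Cox7a1, with 79 counts in all, was the exception.

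Every Arid3a-FLAG library lay below every LUC library for 28 of the 86 genes (32.6%), beside 16.5% of all tested genes. No gene of the set was higher without overlap, beside 16.6% of all tested genes. The 28 comprised 2 core and 8 accessory subunits of complex I, 1 of complex III, 9 of complex IV, 2 of the F1 part of complex V and 6 of its stalk and membrane part. No complex II subunit and no complex I assembly factor was among them. With LUC library 2 set aside, a looser criterion that those 28 meet by construction, no further gene of the set was added, while the share of all tested genes was 24.7%.

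**Figure D2:**
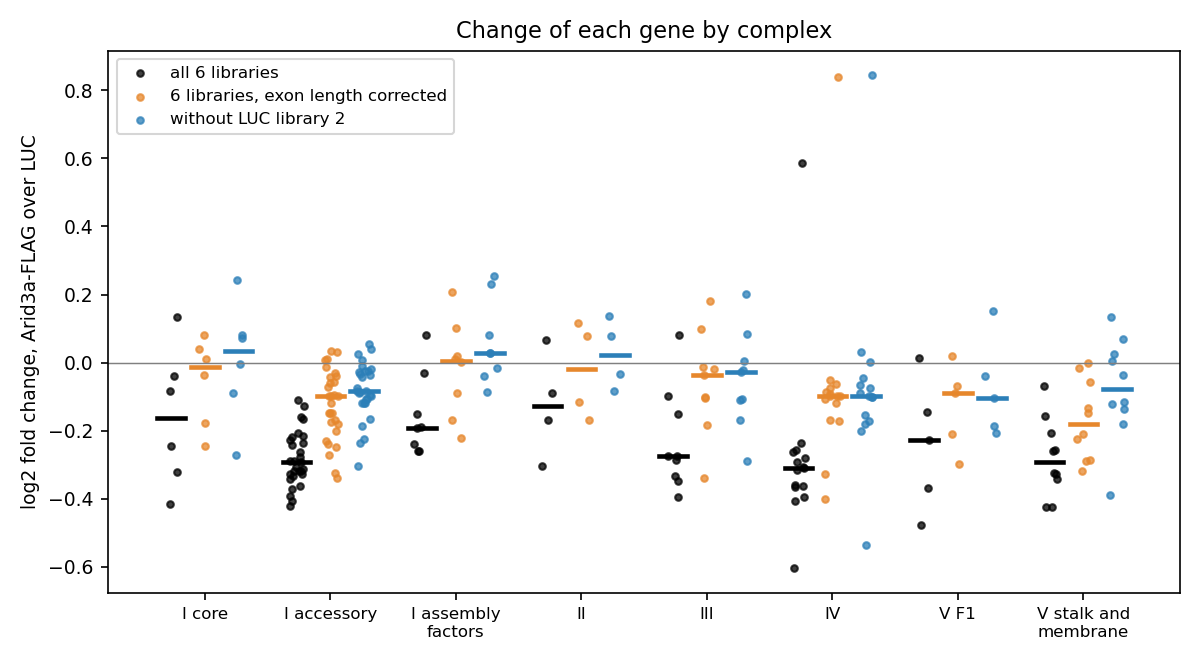
The vertical axis is the log2 fold change of Arid3a-FLAG over LUC, and the horizontal axis the class of gene, with 1 point per tested gene and a bar at the median. Black points use all 6 libraries, orange points add a correction for exon length, and blue points leave out LUC library 2. The black medians run from -0.31 in complex IV to -0.13 in complex II, and the blue medians from -0.10 to 0.033.

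Medians were compared between classes of gene without a test of the differences. With all 6 libraries the median log2 fold change was -0.16 in the 6 tested core subunits of complex I, -0.29 in its 29 accessory subunits and -0.19 in its 8 assembly factors. It was -0.13 in the 4 subunits of complex II, -0.27 in the 9 of complex III and -0.31 in the 15 tested of complex IV. In complex V it was -0.23 in the 5 F1 subunits and -0.29 in the 10 genes of the stalk and membrane part. All 29 accessory subunits of complex I and all 10 genes of the stalk and membrane part of complex V were below 0. Leaving LUC library 2 out, the same medians, in the same order, were 0.033, -0.084, 0.027, 0.022, -0.029, -0.098, -0.10 and -0.077. Core subunits, assembly factors and complex II were then above 0 and the other classes below. The ranges of the classes overlapped.

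Levels between genes were compared per exon length, as CPM per kilobase of exon (FPKM) averaged over the 6 libraries. All annotated exons of a gene were merged for this, so FPKM runs low where they exceed the length of its transcripts. The median over tested genes was lowest in the assembly factors of complex I, at 10.8 FPKM. The core and accessory subunits of complex I had medians of 61.8 and 45.2 FPKM. Complexes II, III and IV had medians of 72.7, 97.7 and 124 FPKM. The F1 part of complex V stood at 156 FPKM and its stalk and membrane part at 86.3 FPKM. The highest single gene was Cox8a, the ubiquitous isoform of a small complex IV subunit, at 556 FPKM, and the lowest value was that of Ndufb2, an accessory subunit of complex I, at 0.905 FPKM. Most subunits of a complex occur in it once or in fixed numbers, yet some partners were far apart. Atp5a1 and Atp5b, the alpha and beta subunits that alternate in the F1 ring, stood at 11.6 and 368 FPKM. Uqcrc1 and Uqcrc2, the core proteins of complex III, stood at 1.75 and 81.9 FPKM. The treatment of multiply aligned reads and the gene models behind the counts were not given in the sources used here, so the low values of Ndufb2, Atp5a1 and Uqcrc1 are counts as deposited and are not read as levels of their transcripts.

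**Figure D3:**
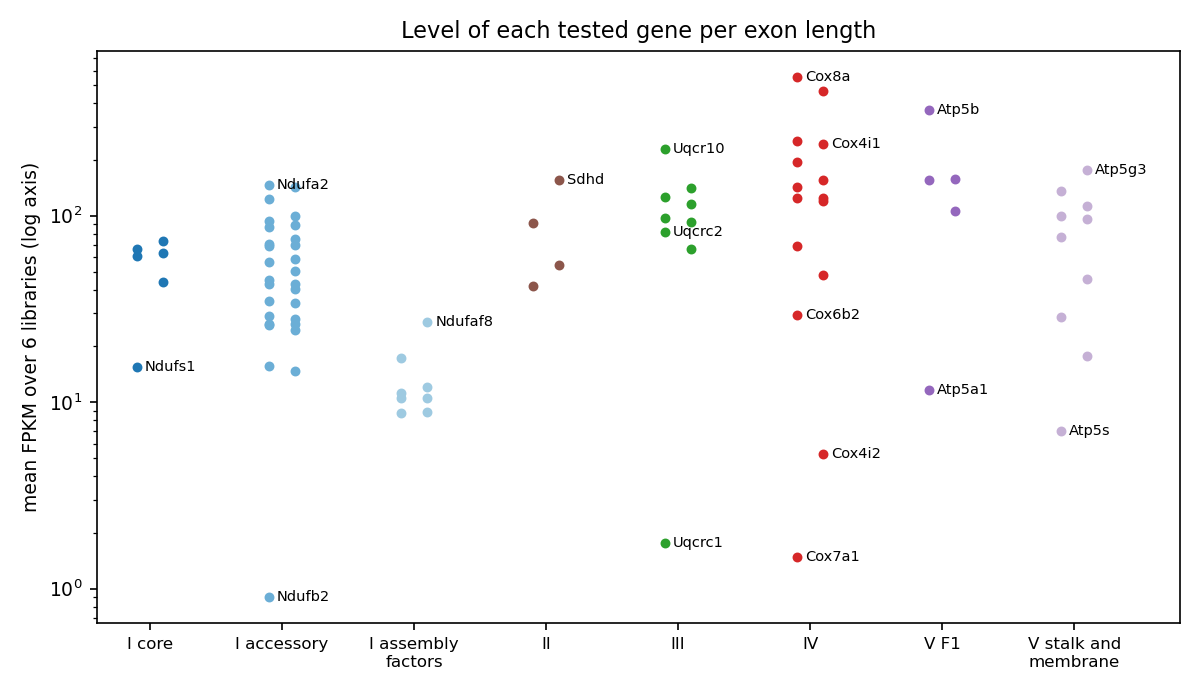
The vertical axis is the mean FPKM over the 6 libraries on a log scale, and each point is 1 tested gene in its class. Cox8a is the highest at 556 FPKM, and Ndufb2, Cox7a1 and Uqcrc1 lie apart at the bottom, at 0.905, 1.48 and 1.75 FPKM.

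Isoforms that differ between tissues were mostly represented by the widely expressed form. Cox4i1 stood at 243 FPKM and Cox4i2, the form known from lung and low oxygen, at 5.24 FPKM, a ratio of 46.4. Cox6a1 stood at 464 FPKM and the heart and muscle form Cox6a2 at 0.420 FPKM. Cox7a2 and Cox7a2l, which takes part in joining complexes into supercomplexes, both stood at 124 FPKM, and the heart and muscle form Cox7a1 at 1.48 FPKM. Cox6b1 stood at 250 FPKM and Cox6b2, known as the testis form, at 29.5 FPKM, a ratio of 8.50, so that Cox6b2 was the best represented of these minor forms. Cox7b2, Cox8b and Cox8c had 0 counts in every library, which allows up to 3 counts, or 0.164 to 0.191 CPM, in a library. Cox7b and Cox8a, their widely expressed counterparts, stood at 155 and 556 FPKM. Ndufa4, now counted as a subunit of complex IV, stood at 120 FPKM, and Ndufa4l2, known to be induced by low oxygen, had 11 counts in all. The 3 genes for the c ring of complex V, which encode the same mature protein, stood at 28.6 (Atp5g1), 135 (Atp5g2) and 176 FPKM (Atp5g3).

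The 6 genes below the filter were Ndufs3, Cox6a2, Cox7b2, Cox8b, Cox8c and Ndufa4l2. Ndufs3, a core subunit of complex I, held 2 counts in all 6 libraries together, while the 6 tested core subunits had a median of 61.8 FPKM. A processed copy, Gm12251, is 98.6% identical to the Ndufs3 transcript over 792 bases and held 401 counts. How reads that fit both were counted was not given in the sources used here, so the Ndufs3 value is not read as its level.

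In complex I the core subunits carry the flavin and the iron-sulfur clusters. Ndufs7, which holds the cluster next to the ubiquinone site, had the smallest p of them. It measured 116, 139.7 and 101 CPM in LUC libraries 1, 2 and 3, and 94.4, 89.5 and 83.5 CPM in Arid3a-FLAG libraries 1, 2 and 3. The groups did not overlap, and the log2 fold change was -0.42 (SE 0.12, adjusted p = 0.060). The value without LUC library 2 was -0.27 (SE 0.079, adjusted p = 0.037), and DESeq2 with all 6 libraries called it lower (adjusted p = 0.026). With the exon length correction Ndufs7 did not pass by edgeR. Its log2 fold change was then -0.25 with all 6 libraries (adjusted p = 0.089) and -0.20 without LUC library 2 (adjusted p = 0.090). Ndufv2, a subunit of the NADH-binding part, measured 137, 201 and 133 CPM in LUC libraries 1, 2 and 3, and 130.2, 126 and 122 CPM in Arid3a-FLAG libraries 1, 2 and 3. Every LUC library was above every Arid3a-FLAG library, LUC 2 was far above the rest, and the log2 fold change of -0.32 (SE 0.14, adjusted p = 0.19) did not pass. It was -0.091 (SE 0.063, adjusted p = 0.35) without LUC library 2. Ndufs1, the largest iron-sulfur subunit, ran the other way and measured 109, 135 and 114 CPM in LUC libraries 1, 2 and 3, and 137, 124 and 132 CPM in Arid3a-FLAG libraries 1, 2 and 3. LUC 2 lay among the Arid3a-FLAG libraries, and the log2 fold change was 0.13 (SE 0.10, adjusted p = 0.43). Leaving out LUC library 2 gave 0.24 (SE 0.066, adjusted p = 0.029), which passed the threshold, as 8.52% of all genes tested without that library did in that direction. With the exon length correction added, Ndufs1 did not pass. Ndufs1 has 8086 bases of exon, the most of the 86.

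Accessory subunits surround the core of complex I. The 29 of them had log2 fold changes between -0.42 and -0.11, and none passed edgeR's test, with 9 lower and 0 higher at an unadjusted p under 0.05, beside 13.9% and 11.7% of all tested genes. Leaving out LUC library 2, 4 were lower and 0 higher at that p, beside 15.4% and 16.1%. The 2 with the smallest p were Ndufa6 and Ndufc2. Ndufa6, a small subunit of the LYR protein family, measured 84.0, 106 and 85.1 CPM in LUC libraries 1, 2 and 3, and 77.5, 65.8 and 70.1 CPM in Arid3a-FLAG libraries 1, 2 and 3. The ranges of both groups were apart, and the log2 fold change was -0.36 (SE 0.11, adjusted p = 0.077). The estimate without LUC library 2 was -0.24 (SE 0.078, adjusted p = 0.059). Ndufc2, a subunit of the membrane arm, measured 55.1, 72.8 and 50.7 CPM in LUC libraries 1, 2 and 3, and 47.4, 44.9 and 42.2 CPM in Arid3a-FLAG libraries 1, 2 and 3. The groups did not overlap here either, and the log2 fold change was -0.41 (SE 0.13, adjusted p = 0.090). With LUC library 2 left out it was -0.22 (SE 0.083, adjusted p = 0.088). With LUC 2 set aside, 4 of the 29 were above 0 and 25 below.

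Ndufa12, an accessory subunit of complex I, had the widest spread within a group relative to its mean of all 86 genes. It measured 40.2, 39.6 and 39.6 CPM in LUC libraries 1, 2 and 3, and 61.0, 25.4 and 22.9 CPM in Arid3a-FLAG libraries 1, 2 and 3. The LUC libraries were nearly equal, Arid3a-FLAG library 1 was above them and the other 2 below. The log2 fold change was -0.13 (SE 0.30, adjusted p = 0.82), and -0.12 without LUC library 2. Leaving out Arid3a-FLAG library 1 left Ndufa12 as the only gene of the set called lower. Its pseudogene Gm15920 is 99.5% identical to it over 402 bases and measured 35.1, 55.3 and 29.4 CPM in LUC libraries 1, 2 and 3, and 23.8, 36.9 and 32.6 CPM in Arid3a-FLAG libraries 1, 2 and 3. Gm15920 was lowest where Ndufa12 was highest, and the sum of both was 75.2, 94.8 and 69.0 CPM in LUC libraries 1, 2 and 3, and 84.8, 62.4 and 55.6 CPM in Arid3a-FLAG libraries 1, 2 and 3. The sums of Arid3a-FLAG libraries 2 and 3 lay below all LUC sums and that of library 1 between them. Ndufa12 and Ndufs3 were singled out after their values were seen.

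The assembly factors of complex I help to build it and do not stay in it. None of the 8 passed edgeR's test, also not at an unadjusted p under 0.05, and none separated the groups. Ndufaf7, a methyltransferase, stood at an estimate of -0.26 (SE 0.13, adjusted p = 0.25), and the estimate for Ndufaf2 was -0.24 (SE 0.15, adjusted p = 0.34). They were -0.087 and -0.040 without LUC library 2. Ndufaf4, whose promoter holds the NRF1 motif, measured 37.7, 51.3 and 37.9 CPM in LUC libraries 1, 2 and 3, and 47.4, 43.4 and 43.3 CPM in Arid3a-FLAG libraries 1, 2 and 3. LUC 2 was the highest library and the other LUC libraries were the lowest, so the groups overlapped. Its log2 fold change was 0.080 (SE 0.13, adjusted p = 0.73). From the other 5 libraries it was 0.25 (SE 0.084, adjusted p = 0.059).

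Complex II, succinate dehydrogenase, links the chain to the tricarboxylic acid cycle and has no subunit from mitochondrial DNA. Sdha, the flavin subunit, measured 359.8, 396 and 347 CPM in LUC libraries 1, 2 and 3, and 393, 388 and 374 CPM in Arid3a-FLAG libraries 1, 2 and 3. The groups overlapped, and the log2 fold change was 0.067 (SE 0.092, adjusted p = 0.69). The value without LUC library 2 was 0.14 (SE 0.061, adjusted p = 0.15). Sdhb, the iron-sulfur subunit, measured 121, 169.7 and 112 CPM in LUC libraries 1, 2 and 3, and 113, 108 and 105 CPM in Arid3a-FLAG libraries 1, 2 and 3. Its LUC 2 value stood far above the rest, LUC 3 lay below Arid3a-FLAG 1, and the log2 fold change was -0.30 (SE 0.14, adjusted p = 0.21). It was -0.084 (SE 0.066, adjusted p = 0.42) without LUC library 2. Sdhc, 1 of the membrane anchors, stood at a log2 estimate of -0.17 (SE 0.11, adjusted p = 0.35), and at -0.034 without LUC library 2. Sdhd, the other anchor, was the highest of the 4 per exon length at 156 FPKM, and Sdhc the lowest at 42.1 FPKM.

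In complex III, Uqcrh, the hinge protein near cytochrome c1, was the only gene that separated the groups. It measured 175, 252 and 167 CPM in LUC libraries 1, 2 and 3, and 159, 146 and 147 CPM in Arid3a-FLAG libraries 1, 2 and 3, and its log2 fold change was -0.39 (SE 0.14, adjusted p = 0.12). Leaving out LUC library 2 gave -0.17 (SE 0.065, adjusted p = 0.10). Uqcr10, a small subunit with the highest level per length of the complex at 226 FPKM, stood at a log2 estimate of -0.29 (SE 0.13, adjusted p = 0.20), and at -0.11 without LUC library 2. Uqcrc2 measured 184, 233 and 193 CPM in LUC libraries 1, 2 and 3, and 229, 209 and 207 CPM in Arid3a-FLAG libraries 1, 2 and 3. LUC 2 was the highest library, and LUC 1 and 3 lay below all Arid3a-FLAG libraries. The log2 fold change was 0.081 (SE 0.11, adjusted p = 0.67). The estimate without LUC library 2 was 0.20 (SE 0.068, adjusted p = 0.061). Without LUC library 2 and with the exon length correction together, Uqcrc2 was higher by 0.24 on the log2 scale (adjusted p = 0.039 by edgeR). Of all genes tested that way, 7.07% were called higher.

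Cox6b2 of complex IV was the 1 gene of the set that passed. It encodes an isoform of the subunit that joins the monomers of cytochrome c oxidase, and lies on chromosome 7 of GRCm38 from 4751792 to 4753094 on the minus strand (ENSMUSG00000051811), with 1108 bases of exon. It measured 40.2, 42.3 and 35.6 CPM in LUC libraries 1, 2 and 3, and 22.3, 27.9 and 27.4 CPM in Arid3a-FLAG libraries 1, 2 and 3. All LUC libraries were above all Arid3a-FLAG libraries, and LUC 2 was close to LUC 1. Cox6b2 fell by 0.60 on the log2 scale, with an SE of 0.12 and an adjusted p of 0.015 by edgeR's quasi-likelihood test. With LUC library 2 left out it was -0.54 (SE 0.11, adjusted p = 0.0086). Cox6b2 no longer passed without LUC library 1 (adjusted p = 0.058) or without Arid3a-FLAG library 1 (adjusted p = 0.089), with log2 fold changes of -0.56 and -0.51. Its widely expressed counterpart Cox6b1 measured 172, 262 and 164 CPM in LUC libraries 1, 2 and 3, and 160.5, 150.5 and 154 CPM in Arid3a-FLAG libraries 1, 2 and 3. Its log2 fold change was -0.36 (SE 0.16, adjusted p = 0.18). From the other 5 libraries it was -0.10 (SE 0.063, adjusted p = 0.30). The groups of Cox6b1 did not overlap, and the 2 isoforms were not tested against each other.

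The other complex IV genes did not pass. Cox8a measured 365, 465 and 331 CPM in LUC libraries 1, 2 and 3, and 304, 297 and 301 CPM in Arid3a-FLAG libraries 1, 2 and 3. Every LUC library was above every Arid3a-FLAG library, and the log2 fold change was -0.37 (SE 0.12, adjusted p = 0.10). The value without LUC library 2 was -0.20 (SE 0.064, adjusted p = 0.053). Cox7a1, at 79 counts in all, measured 0.693, 0.850 and 0.378 CPM in LUC libraries 1, 2 and 3, and 0.621, 1.22 and 1.00 CPM in Arid3a-FLAG libraries 1, 2 and 3. The groups overlapped, and the estimate of 0.59 (SE 0.42, adjusted p = 0.41) had the widest error of the set. It was 0.84 without LUC library 2.

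**Figure D4:**
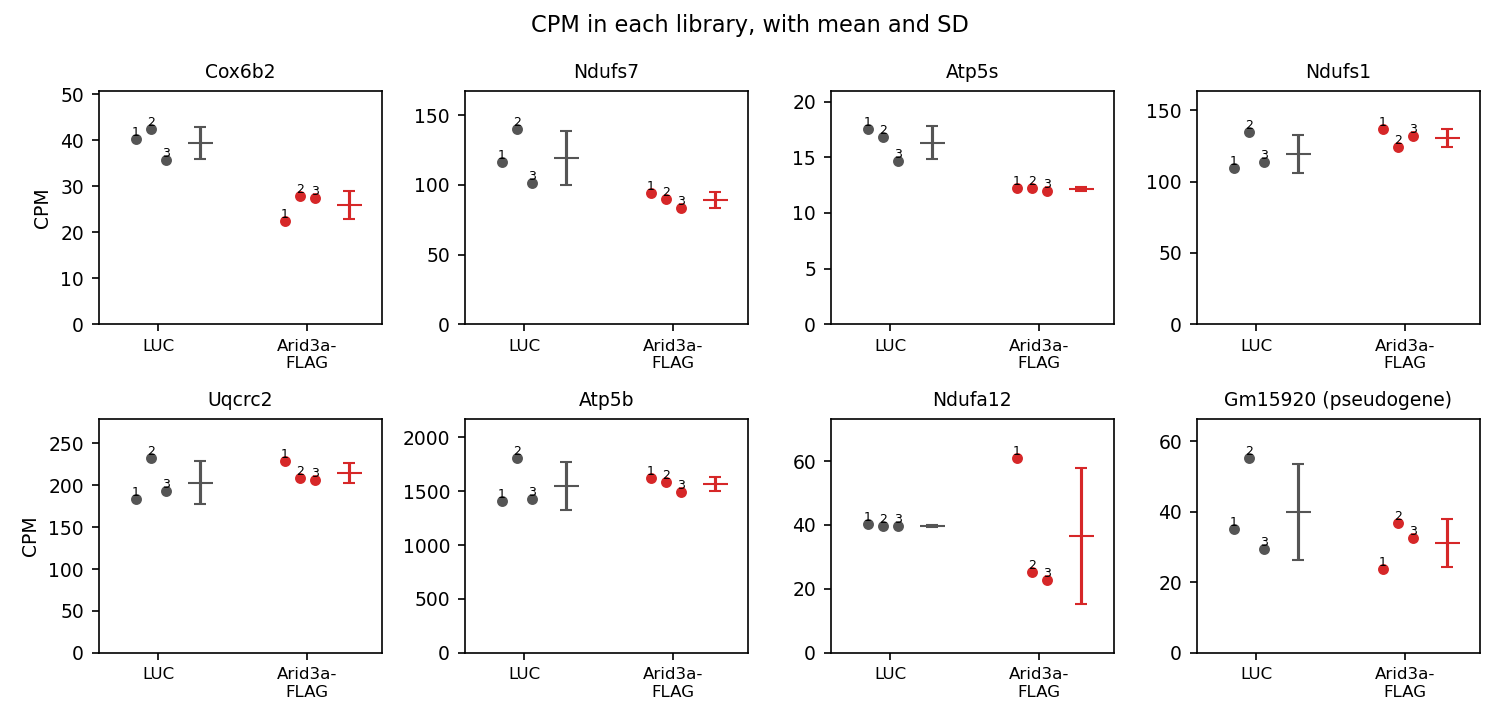
Each panel gives the CPM of 1 gene in each library, numbered 1 to 3 within its group, on an axis that starts at 0. Bars show the mean and SD of 3 libraries. The groups do not overlap in Cox6b2, Ndufs7 and Atp5s, and overlap in Ndufs1, Uqcrc2, Atp5b, Ndufa12 and Gm15920.

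In complex V the F1 part holds the catalytic head and central stalk. Atp5b, the catalytic beta subunit, was the most counted gene of the set and measured 1413, 1809 and 1432 CPM in LUC libraries 1, 2 and 3, and 1622, 1587 and 1490.2 CPM in Arid3a-FLAG libraries 1, 2 and 3. The groups overlapped, and the log2 fold change was 0.014 (SE 0.12, adjusted p = 0.96). It was 0.15 (SE 0.062, adjusted p = 0.12) without LUC library 2. Atp5e, the epsilon subunit of the central stalk, measured 191, 289 and 173 CPM in LUC libraries 1, 2 and 3, and 169, 146 and 154 CPM in Arid3a-FLAG libraries 1, 2 and 3. The ranges of both groups were apart and LUC 2 was far above the rest. The log2 fold change was -0.48 (SE 0.17, adjusted p = 0.11). Leaving out LUC library 2 gave -0.21 (SE 0.076, adjusted p = 0.084). Atp5d, the delta subunit beside it, stood at a log2 estimate of -0.37 (SE 0.13, adjusted p = 0.11). The estimate without LUC library 2 was -0.19 (SE 0.069, adjusted p = 0.084).

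The stalk and membrane part of complex V holds the c ring, the peripheral stalk and small membrane subunits. Atp5mpl, a small proteolipid found with the enzyme, measured 122, 180.5 and 116 CPM in LUC libraries 1, 2 and 3, and 111, 97.1 and 103 CPM in Arid3a-FLAG libraries 1, 2 and 3. The groups did not overlap, and the log2 fold change was -0.42 (SE 0.15, adjusted p = 0.12). With LUC library 2 left out it was -0.18 (SE 0.071, adjusted p = 0.11). Atp5s, a protein known as coupling factor B, measured 17.5, 16.8 and 14.7 CPM in LUC libraries 1, 2 and 3, and 12.2, 12.3 and 11.99 CPM in Arid3a-FLAG libraries 1, 2 and 3. Every LUC library was above every Arid3a-FLAG library, LUC 2 lay between LUC 1 and LUC 3, and the log2 fold change was -0.42 (SE 0.13, adjusted p = 0.069). From the other 5 libraries it was -0.39 (SE 0.13, adjusted p = 0.058). Atp5s and Cox6b2 thus kept most of their estimate without LUC library 2, whereas the estimates of Ndufv2, Atp5e and Atp5mpl moved much closer to 0. With the exon length correction and all 6 libraries, Cox6b2 stood at -0.40 and Atp5s at -0.29 (adjusted p = 0.049 and 0.16 by edgeR). Ndufv2, Atp5e and Atp5mpl then stood at -0.18, -0.30 and -0.21.

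Other genes of like exon length shared much of the pattern. The 86 genes had a median exon length of 1631 bases, against 4070.5 bases in the other 13545 tested genes. Exon length is that of all annotated exons of a gene merged, which can exceed the length of its transcripts. Atp5l has 6443 bases of exon, yet a stretch of 309 bases made up 56.8% of its longest coding transcript. Among the other genes, LUC library 2 exceeded the mean of LUC 1 and 3 by a median of 0.36 on the log2 scale under 600 bases, and by 0.34, 0.30 and 0.22 in the bins from 600 to under 900, from 900 to under 1500 and from 1500 to under 2500 bases. From 2500 bases on, the other genes had a median of -0.062. In the same 5 bins the respiratory chain genes had medians of 0.51, 0.63, 0.56, 0.53 and 0.43, so they exceeded other genes in every bin and most in the longest. Because exons are merged, genes with short transcripts can stand in the longest bin, and their part in that excess was not tested. The bins held 4, 14, 21, 23 and 24 respiratory chain genes.

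The difference between the groups was compared in the same bins. The median log2 fold changes of the respiratory chain genes were -0.29, -0.31, -0.31, -0.27 and -0.21 from the shortest to the longest bin, beside -0.25, -0.25, -0.21, -0.16 and 0.016 in the other genes. The fold changes of the 86 minus the median of other genes in their bin had a median of -0.11. This median was -0.0037 without LUC library 2, and the medians by bin of the respiratory chain genes minus those of the other genes ran from -0.062 in the longest bin to 0.016. When a smooth curve against exon length was removed from each library, with all 6 libraries, the median log2 fold change of the 86 was -0.099, 68 of the 86 were below 0, and Cox6b2 was the only one that passed (adjusted p = 0.049 by edgeR), beside 4.72% of all genes called lower and 4.48% higher. Without LUC library 2 and with this correction the median was -0.0057 and 47 of the 86 were below 0, with 1 called lower and 1 higher, beside 7.47% and 7.07% of all genes.

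**Figure D5:**
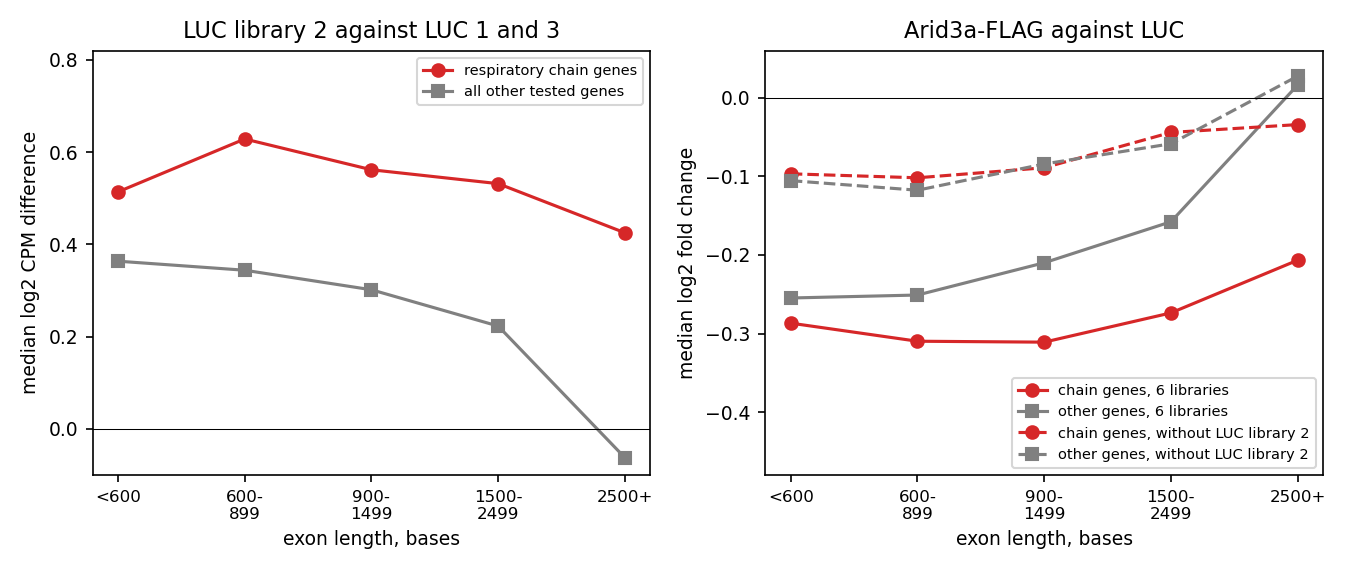
Both panels have the exon length of the gene in 5 bins on the horizontal axis. The left panel gives the median log2 CPM difference of LUC library 2 from LUC 1 and 3, which is above that of other genes in every bin for the respiratory chain genes. The right panel gives the median log2 fold change of Arid3a-FLAG over LUC, where the red and grey lines are apart with 6 libraries and close together without LUC library 2.

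Some counts of the set are uncertain because of other genes. Exons of 30 of the 92 genes overlap another gene, 26 of them on the opposite strand only, and whether counting used the strand was not given in the sources used here. A pseudogene near-identical over at least 100 bases exists for 14 genes. It held at least 10% of the counts of the gene itself for 8 of them: Atp5g1, Atp5h, Atp5l, Cox7c, Ndufa12, Ndufab1, Ndufs3 and Uqcr11. Cox6b2 was in neither group. Near-identical stretches in genes annotated as protein-coding are not in these counts. Among them, Gm11273 is 99.2% identical to Cox5b over 390 bases and held 13.58% of the Cox5b counts.

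Genes that work with the respiratory chain were described from lists fixed by symbol. Of all tested genes, 3.87% were called lower and 3.43% higher with all 6 libraries. Without LUC library 2, 7.83% were called lower and 8.52% higher. Of the 13 subunits encoded by mitochondrial DNA, 2 were called lower, mt-Co2 and mt-Atp6, and the median log2 fold change was -0.26, against -0.027 without LUC library 2 and -0.052 with the exon length correction. mt-Co2, a core subunit of complex IV, measured 44.9, 66.4 and 75.6 CPM in LUC libraries 1, 2 and 3, and 35.3, 35.6 and 36.9 CPM in Arid3a-FLAG libraries 1, 2 and 3. It fell by 0.79 on the log2 scale, with an SE of 0.16 and an adjusted p of 0.018. mt-Atp6, a membrane subunit of complex V, fell by 0.67 (SE 0.17, adjusted p = 0.037). Neither passed with the exon length correction (adjusted p = 0.057 and 0.12). The estimates of the 13 genes ran from -0.79 to 1.07, with 9 below 0 and 4 above. Their summed level was 14047 to 19705 CPM in LUC libraries and 12753 to 16232 CPM in Arid3a-FLAG libraries. How multiply aligned reads were counted was not given in the sources used here. The mt-Co2 and mt-Atp6 values are therefore counts as deposited and are not read as levels of their transcripts. Of 22 tested electron carriers and linked enzymes, Etfb, a subunit of the electron transfer flavoprotein, was the 1 called (log2 fold change -0.74, SE 0.17, adjusted p = 0.027). The median of these 22 was -0.10, and 0.023 without LUC library 2, where 1 was called. By edgeR none of 39 assembly factors outside the symbol rule passed (median -0.098; 5 lower and 1 higher at an unadjusted p under 0.05). Without LUC library 2 their median was -0.0092 and 2 were called higher, with 3 lower and 6 higher at an unadjusted p under 0.05. With the exon length correction 1 was called higher (median -0.017). Of 26 tricarboxylic acid cycle genes, Idh2, the mitochondrial isocitrate dehydrogenase that uses NADP, was the 1 called (-0.45, SE 0.10, adjusted p = 0.023). Their median was -0.056, and 0.030 without LUC library 2, where 1 was called lower and 1 higher.

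Ribosomal protein genes also had medians below 0. The 76 tested mitochondrial ribosomal genes had a median of -0.21 with 1 called lower, Mrpl14 (adjusted p = 0.036). The 92 tested cytoplasmic ribosomal genes had a median of -0.37 with 1 called lower, Rpl29 (adjusted p = 0.028). Their summed level was 79619 to 116849 CPM in LUC libraries, highest in LUC library 2, and 70201 to 76004 CPM in Arid3a-FLAG libraries. Leaving out LUC library 2, the median was -0.0075 for the mitochondrial genes, with 2 called lower and 1 higher. For the cytoplasmic genes it was -0.16, with 13 called lower and 0 higher. Of all genes tested without that library, 7.83% were called lower and 8.52% higher, which also stands beside the other lists. With the exon length correction added to that fit, the cytoplasmic median was -0.096, with 5 called lower and 0 higher. The mitochondrial median was then 0.035, with 1 called lower and 2 higher. Of all genes tested that way, 7.47% were called lower and 7.07% higher. By edgeR none of 23 protein import genes passed (median -0.12; 2 lower and 0 higher at an unadjusted p under 0.05). Leaving out LUC library 2 turned their median to 0.051, with 17 of 23 above 0 and 2 called higher, and 5 higher against 1 lower at an unadjusted p under 0.05. Of 18 tested regulators of mitochondrial genes, among them Nrf1, Gabpa and Yy1, 1 was called higher, Hcfc1, a cofactor of transcription (0.42, SE 0.11, adjusted p = 0.041). Of 19 glycolysis entries 1 was called higher, Slc2a3, a glucose transporter (0.55, SE 0.14, adjusted p = 0.039). At least 1 symbol of that list stands under more than 1 identifier and is counted more than once. Without LUC library 2, 4 regulators were called higher, and 2 glycolysis entries higher and 2 lower. The median of the regulators was then 0.069, against 0.079 with all libraries, and that of the glycolysis genes 0.050, against -0.042. The 8 genes named from these lists passed without LUC library 2 too, with adjusted p-values from 0.0035 (Rpl29) to 0.031 (mt-Atp6). With the exon length correction and all libraries, Mrpl14 did not pass (adjusted p = 0.054 by edgeR), nor did mt-Co2 and mt-Atp6. Etfb, Idh2, Rpl29, Hcfc1 and Slc2a3 still passed.

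The labelled tissue was checked against marker genes. Megakaryocyte markers summed to 6053 to 7532 CPM in LUC libraries and 6461 to 6919 CPM in Arid3a-FLAG libraries, with 3 of 8 tested called higher and none lower. Mast cell and basophil markers summed to 2797 to 3319 CPM in LUC and 2032 to 2689 CPM in Arid3a-FLAG libraries, with 3 of 8 called lower. Erythroid markers summed to 193 to 247 CPM in LUC and 274 to 357 CPM in Arid3a-FLAG libraries, with 1 of 6 tested called higher, 1 lower and Slc4a1 at 0. The sums of mast cell and erythroid markers separated the groups, and the megakaryocyte sums overlapped. Stem and progenitor markers summed to 1463 to 1922 CPM in LUC and 1623 to 1887 CPM in Arid3a-FLAG libraries, with none of 5 tested called by edgeR (at an unadjusted p under 0.05, 2 lower and 1 higher). Neutrophil and macrophage markers summed to 21.7 to 21.9 CPM in LUC and 20.4 to 32.0 CPM in Arid3a-FLAG libraries, with 1 of 5 tested called higher, 1 lower and Ly6g at 0. Hepatocyte markers stayed between 16.3 and 27.2 CPM in all libraries, with Ttr at 0. The part of these cell types in the differences of respiratory chain genes was not tested. In bulk RNA, fewer cells of a type and less RNA per cell cannot be told apart.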

How the data were processed

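RNA of 6 samples was measured by sequencing. The authors deposited whole, unnormalized read counts for each gene. Per the submitters' processing notes the tools were fastp, HISAT2 2.0.5 and featureCounts, and the build was mm10. Settings, annotation release and strand of counting were not given in the sources used here. GENCODE M21 on GRCm38 gave symbols, positions and exon lengths by Ensembl identifier; 95 identifiers had no match (0.0107% to 0.0170% of counts), and the construct entry was left out of library sizes and tests.

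Genes kept by filterByExpr were tested with edgeR 4.0.16 under R 4.3.3 (TMM factors, quasi-likelihood F test, two-sided, group as the only term), with Benjamini-Hochberg adjustment over 13631 genes and a threshold of 0.05. Adjusted p-values come from it unless another tool is named. SE was computed as the absolute log2 fold change over the square root of F. FPKM is the scaled CPM per kilobase of merged exons. The exon length correction is an offset per gene and library from a lowess curve (span 0.3). Alternatives used limma 3.58.1 and DESeq2 1.42.0, other scalings and filters, the replicate number as a block, and leaving out each library. Near-identical copies were found with BLAST+ 2.17.0 (at least 97% identity over 100 bases). Scripts were tested on simulated counts.

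The genes and lists were chosen with earlier results of these data known. Named genes are those with an adjusted p under 0.05, the 2 with the smallest p in each direction per class, the highest and lowest of each class in FPKM, the isoform sets, and up to 2 called genes in each direction per companion list. Single values of 1 gene of the set are not reported here.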

Additional observations from a re-analysis of the deposited data

How the results depend on the processing

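The count of respiratory chain genes called lower was 1 with all 6 libraries and also with RLE factors, limma-voom, a minimum of 5 CPM, the 20 most abundant genes left out, or the exon length correction. It was 2 with upper quartile factors and with DESeq2 (Cox6b2 and Ndufs7). It was 17 of 89 tested without a filter on low counts, where 4.5% of the 23914 genes tested were called lower. Leaving out 1 library at a time gave 0 to 4 called lower (0 without LUC library 1, 2 without LUC library 2, 4 without LUC library 3) and 0 to 1 called higher. Over all tested genes, 994 were called in either direction, 1945 without the filter and 1561 by DESeq2. With 1 library left out, 233 to 2286 were called in either direction. The totals were 233, 294 and 565 without Arid3a-FLAG library 1, 2 or 3. They were 428, 2286 and 1049 without LUC library 1, 2 or 3. The cause was not tested.

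Same-numbered libraries of both groups correlated in their deviations at -0.10, -0.12 and 0.13, so no pairing by number was seen. With 3 libraries a group, these values cannot decide whether same-numbered samples shared an animal or day. With the replicate number as a block, 1 gene of the set was called lower and 940 of all genes were called. With the block and the exon length correction, 0 were called, with Cox6b2 at an adjusted p of 0.064.

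The median log2 fold change of the set lay between -0.36 and -0.071 with 1 library left out, and between -0.29 and -0.091 under the other alternatives named so far. Without LUC library 2 and with the exon length correction, an alternative chosen after seeing the data, it was -0.0057, and 1 gene was called higher. By class it was then 0.095 (complex I core), -0.0093 (accessory), 0.0997 (assembly factors), 0.054 (complex II), 0.029 (complex III), 0.00068 (complex IV), -0.090 (complex V F1) and -0.055 (complex V stalk and membrane). Leaving out 1 library gave -0.23 to 0.033 for the complex I core and -0.37 to -0.029 for complex III, which stood at -0.037 with the exon length correction, with or without the block. Atp5b, near 0, was -0.0012 with upper quartile factors and ran from -0.024 to 0.15 with 1 library left out. With 3 libraries a group, the SE of the log2 fold change ran from 0.092 (Sdha) to 0.42 (Cox7a1).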
